A study of Mus musculus with 15 samples.

Results

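The genes described here are 10 genes of the fat cell, Adipoq, Lep, Retn, Cfd, Plin1, Cidec, Fabp4, Pparg, Lipe and Scd1, as measured by RNA sequencing in the gastrocnemius muscle of aged mice. They were taken by gene symbol, each symbol matched 1 Ensembl gene, and they are 10 of the 55450 genes counted. The genes were listed because their levels in these same mice had drawn attention, so their levels and differences are given as a description. Where the 10 are counted at an unadjusted p under 0.05, the count or share of all genes stands beside. Nothing is read from these counts. All 15 mice were female C57BL/6JN mice older than 17 months. They were divided by the number of positive frailty markers into a Low group (at most 1 marker, called robust in the labels) and a High group (at least 2 markers, called frail). Control mice stayed in their cages, and Run mice completed 2 bouts of treadmill running on a decline of 22 degrees at 13 m/min, with the muscle taken 24 h after the last bout. The groups were Low Control (4 mice, D8, D9, D11 and D98), Low Run (4 mice, D57, D61, D66 and D68), High Control (3 mice, D23, D25 and D67) and High Run (4 mice, D49, D52, D53 and D62), and values are listed in this order of mice below. A body weight high within the cohort was itself 1 of the frailty criteria, so frailty group and body weight are linked by design. RNA came from a small portion of 1 pulverized gastrocnemius per mouse, and the labels name no transgene or mutation.

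White adipocytes store triglyceride in a single large lipid droplet and secrete hormones. In muscle they lie between the fibers and in the connective tissue around the muscle. PPARγ, encoded by Pparg, pairs with the retinoid X receptor and with C/EBP factors to switch on most genes of the mature adipocyte, among them Adipoq (adiponectin), Retn (resistin), Plin1 (perilipin 1) and Cidec. Lep encodes leptin, which reports fat stores to the brain, and Cfd encodes adipsin, a serine protease of the complement system. Not all of these genes belong to adipocytes alone: Fabp4 is also made by capillary endothelium and macrophages, Lipe (hormone-sensitive lipase) by muscle fibers, and Scd1, a fatty acid desaturase, by any cell that makes fat.

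The sequences upstream of 3 genes are shown because Adipoq and Retn had levels that followed each other closely across the mice while Lep parted from them in 2 mice. They are the bases before the first annotated exon, from RefSeq on GRCm38.p6, plus strand. Capitals mark CCAAT, or its reverse ATTGG, in Adipoq and TTGCGCAA in Lep.

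Adipoq: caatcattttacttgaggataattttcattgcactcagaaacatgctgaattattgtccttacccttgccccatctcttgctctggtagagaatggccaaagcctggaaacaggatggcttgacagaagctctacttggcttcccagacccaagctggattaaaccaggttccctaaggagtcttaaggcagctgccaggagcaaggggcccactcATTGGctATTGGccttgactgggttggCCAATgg
Retn: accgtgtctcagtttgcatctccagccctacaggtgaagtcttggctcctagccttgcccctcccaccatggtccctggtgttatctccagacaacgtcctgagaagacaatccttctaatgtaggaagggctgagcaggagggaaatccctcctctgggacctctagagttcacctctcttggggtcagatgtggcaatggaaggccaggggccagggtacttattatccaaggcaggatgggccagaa
Lep: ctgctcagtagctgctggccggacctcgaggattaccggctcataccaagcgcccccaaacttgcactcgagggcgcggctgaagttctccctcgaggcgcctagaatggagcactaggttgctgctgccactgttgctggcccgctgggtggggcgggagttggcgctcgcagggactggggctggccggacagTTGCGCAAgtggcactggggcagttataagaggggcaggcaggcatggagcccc

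The Adipoq stretch is chr16:23146286-23146535, the Retn stretch chr8:3655520-3655769 and the Lep stretch chr6:29059971-29060219. RefSeq promoter windows, from 250 bases before to 50 bases after a transcription start, were at hand for 8 of the 10 genes (12 windows), all except Fabp4 and Scd1. Both strands were searched for 5 motifs, of which AGGTCA lies within the DR1 element and TTGCGCAA is 1 form of TTGCNNAA. TTGCGCAA, the palindrome that C/EBP factors bind, was in 0.183% of all 32851 windows and in 1 of the 8 genes, Lep, starting 55 bases before the RefSeq start. The looser form TTGCNNAA was in 10.8% of all windows and in 4 of the genes (Cidec, Lep, Plin1 and Pparg). The DR1 element bound by PPARγ with the retinoid X receptor, 2 copies of AGGTCA with 1 base between them, was in 0.0396% of all windows and in none of the 8 genes, while the single AGGTCA was in 16.3% of all windows and in those of Pparg alone. CCAAT was in 37.4% of all windows and in those of Adipoq (3 matches, 34, 27 and 7 bases before the start) and Pparg. Adipoq and Retn shared none of the 5 motifs in these windows.

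Libraries held 19395125 to 30699216 counts (median 25926420), and 16920 genes passed the filter on low counts, including all 10 adipocyte genes. Levels are given as CPM, the usual unit of counts relative to the total of the library, scaled by TMM, a correction for composition between libraries. Low Control mouse D9 and High Run mouse D62 stood apart from the other libraries over all genes. On the first principal component, which held 26.0% of the variance, they lay at 76.0 and 49.3 while the other 13 mice lay between -19.7 and 14.4, and values without them are given beside the results below. The tissue was muscle by its markers: 6 muscle fiber genes summed to between 56166 and 97491 CPM per mouse and the 10 adipocyte genes to between 419 and 981 CPM. The lowest count of an adipocyte gene in any mouse was 21, for Lep in D62. Of 6 markers of brown adipocytes, Ucp1 and Elovl3 had under 10 counts in every mouse, while the other 4 passed the filter, with 19 to 116 counts of Cidea, 17 to 87 of Dio2, 8 to 42 of Kcnk3 and 3530 to 7292 of Cox8b. Which cells of the muscle these 4 came from was not tested. In bulk muscle, fewer adipocytes and less RNA per adipocyte cannot be told apart.

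Per kilobase of annotated exon, Cfd had the highest level of the 10 genes, with a median of 68.8 CPM per kb over the 15 mice (range 40.5 to 195). Fabp4 followed at 48.7 CPM per kb, a value that its long annotated exons lower, since together they cover the whole gene. Next came Scd1 at 24.8, Adipoq at 11.7, Cidec at 9.47 and Lipe at 6.65 CPM per kb. Retn at 3.99, Plin1 at 3.53, Pparg at 1.95 and Lep at 1.39 CPM per kb were lowest. The ranges over mice of any 2 neighbors in this order overlapped. The genes differed widely in how much they varied: the highest mouse exceeded the lowest by 25.5-fold for Lep and 12.6-fold for Scd1, but by 2.14-fold for Pparg and 1.87-fold for Fabp4.

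**Figure D1:**
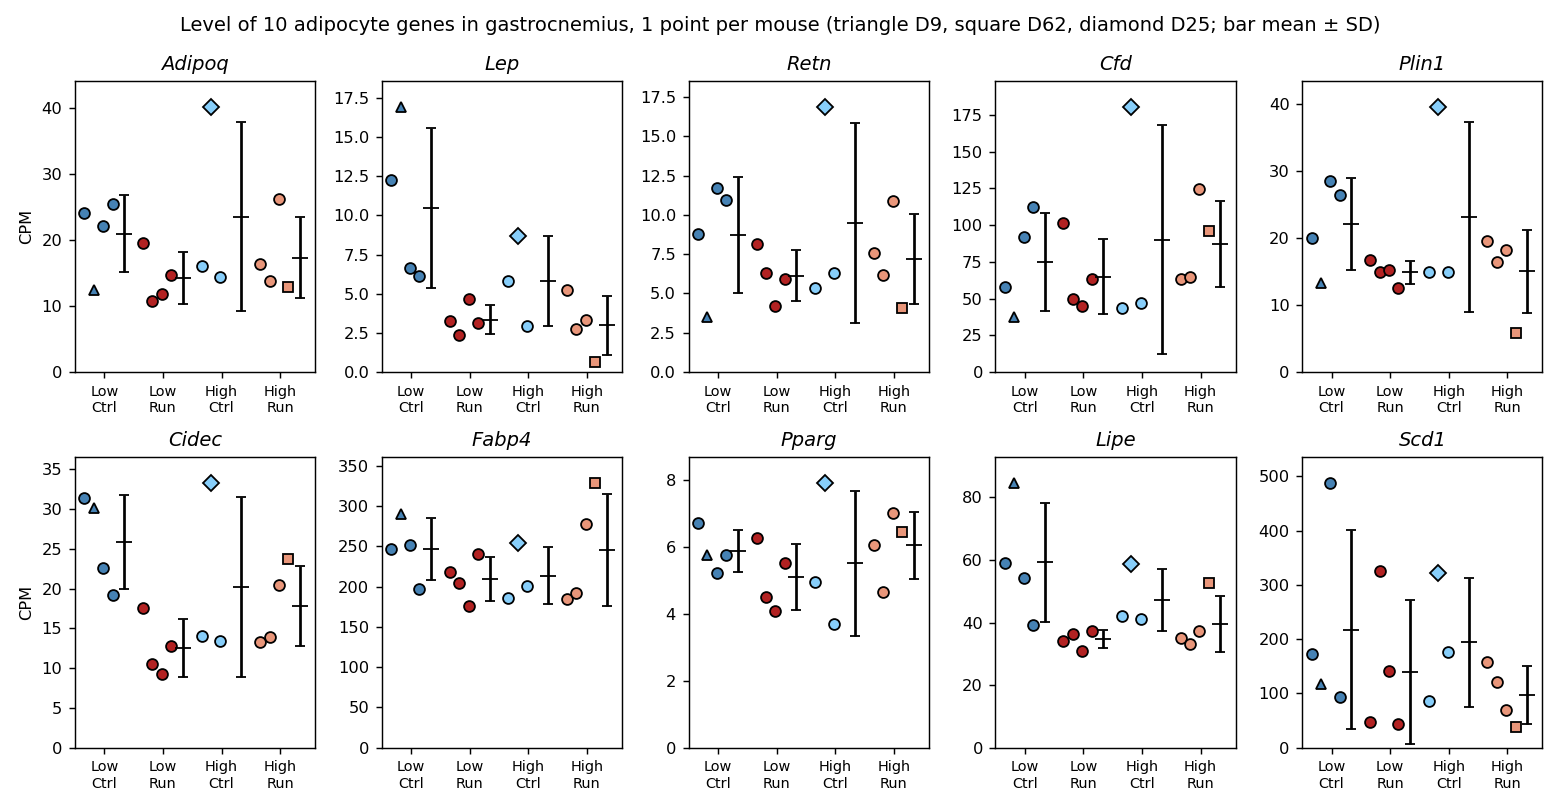
CPM of each gene (vertical axes, starting at 0) in each of the 15 mice, grouped by frailty and running; bars give the mean ± SD of a group. High Control mouse D25 (diamond) is highest in 6 of the 10 genes, Low Control mouse D9 (triangle) is highest for Lep and Lipe and lowest for Retn and Cfd, and High Run mouse D62 (square) is lowest for Lep, Plin1 and Scd1 and highest for Fabp4.

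Among the adipokines, leptin separated the Low groups and adiponectin, resistin and adipsin did not. Lep (chromosome 6, 29060220 to 29073877, plus strand) was at 12.3, 16.9, 6.63 and 6.14 CPM in Low Control, 3.28, 2.38, 4.65 and 3.11 in Low Run, 5.79, 8.71 and 2.97 in High Control, and 5.27, 2.75, 3.29 and 0.661 in High Run mice. Every Low Control mouse lay above every Low Run mouse, whereas the High groups overlapped, with D67 among the Run values and D62 far below all other mice. The mean log2 CPM of Lep differed by -1.53 (SE 0.40, 4 mice a group) between Low Run and Low Control mice, a fold of 0.345. In the High groups the log2 difference was -1.12 (SE 0.76), and it was -0.54 without D62 and -0.77 without D25, while in the Low groups it was -1.26 without D9.

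Adipoq (chromosome 16, 23146536 to 23158028, plus strand), the most adipocyte-restricted of the hormones, was at 24.1, 12.4, 22.1 and 25.4 CPM in Low Control, 19.5, 10.8, 11.9 and 14.7 in Low Run, 16.1, 40.1 and 14.4 in High Control, and 16.4, 13.7, 26.3 and 13.0 in High Run mice. The Low groups overlapped only through D9. The log2 difference of Low Run from Low Control was -0.54 (SE 0.30), and -0.78 without D9, at which point all 3 Low Control mice lay above all 4 Low Run mice. In the High groups D25 lay far above D23 and D67, and the difference of -0.34 had an SE of 0.52. It was 0.13 without D25 and -0.22 without D62.

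Retn (chromosome 8, 3655770 to 3660110, plus strand), the hormone resistin, was at 8.81, 3.52, 11.7 and 10.9 CPM in Low Control, 8.16, 6.31, 4.18 and 5.91 in Low Run, 5.37, 16.8 and 6.27 in High Control, and 7.57, 6.19, 10.9 and 4.09 in High Run mice. D9 was the lowest of all mice and D25 the highest. The log2 difference in the Low groups was -0.41 (SE 0.44), and -0.79 without D9. In the High groups it was -0.29 (SE 0.59), 0.22 without D25 and -0.05 without D62.

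Cfd (chromosome 10, 79890853 to 79892655, plus strand) was at 58.0, 37.3, 91.9 and 112 CPM in Low Control, 101, 49.7, 44.9 and 63.4 in Low Run, 43.9, 180.1 and 46.7 in High Control, and 63.0, 64.4, 125 and 96.2 in High Run mice. Its groups overlapped in both comparisons. The log2 differences were -0.16 (SE 0.44) in the Low groups and 0.22 (SE 0.71) in the High groups, smaller than their errors. The sign in the Low groups turned to positive in 1 of 12 alternative computations (the highest value was 0.08), and that in the High groups to negative in 3 of 11. Without D25 the value in the High groups was 0.88, and without D9 and D62 the values were -0.45 in the Low and 0.15 in the High groups.

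The lipid droplet proteins differed among themselves. Cidec (chromosome 6, 113424634 to 113435760, minus strand), which promotes fusion of droplets, was at 31.4, 30.1, 22.6 and 19.2 CPM in Low Control, 17.6, 10.6, 9.21 and 12.7 in Low Run, 14.0, 33.2 and 13.4 in High Control, and 13.3, 13.9, 20.4 and 23.7 in High Run mice. Every Low Run mouse lay below every Low Control mouse, whereas the High Run mice lay among the High Control mice, with D25 above them all. The log2 difference was -1.05 (SE 0.26) in the Low groups, a fold of 0.482, and -0.97 without D9. It was -0.09 (SE 0.47) in the High groups and turned positive in 3 of 11 alternative computations, with 0.33 without D25 and -0.24 without D62.

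Plin1 (chromosome 7, 79720218 to 79732903, minus strand), the coat protein of the droplet, was at 20.0, 13.3, 28.6 and 26.4 CPM in Low Control, 16.8, 15.0, 15.3 and 12.6 in Low Run, 15.0, 39.5 and 14.9 in High Control, and 19.6, 16.4, 18.3 and 5.89 in High Run mice. D9 again fell among the Low Run mice, and D62 lay far below the other High Run mice. The log2 difference was -0.51 (SE 0.26) in the Low groups and -0.73 without D9. It was -0.60 (SE 0.62) in the High groups, -0.13 without D25 and -0.20 without D62.

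Fabp4 (chromosome 3, 10204088 to 10208576, minus strand), a fatty acid carrier of the cytoplasm, was at 247, 291, 251 and 197 CPM in Low Control, 219, 205, 176 and 241 in Low Run, 186, 254 and 201 in High Control, and 185, 192, 278 and 329 in High Run mice. The groups overlapped. Its log2 differences were -0.23 (SE 0.15) in the Low groups and 0.17 (SE 0.24) in the High groups, and 0.02 without D62 and 0.30 without D25 in the High groups. In the Low groups it was -0.14 without D9.

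Pparg (chromosome 6, 115360951 to 115490399, plus strand), the nuclear receptor that drives the adipocyte program, was at 6.73, 5.75, 5.22 and 5.75 CPM in Low Control, 6.26, 4.50, 4.09 and 5.51 in Low Run, 4.94, 7.90 and 3.69 in High Control, and 6.05, 4.66, 7.02 and 6.46 in High Run mice. It varied little and its groups overlapped. The log2 differences were -0.21 (SE 0.16) in the Low and 0.19 (SE 0.34) in the High groups. They were -0.22 and 0.15 without D9 and D62, and 0.48 in the High groups without D25.

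Lipe (chromosome 7, 25379527 to 25398710, minus strand), the lipase that cuts diglycerides in fat breakdown, was at 59.0, 84.6, 54.2 and 39.1 CPM in Low Control, 34.3, 36.5, 31.0 and 37.2 in Low Run, 42.1, 58.7 and 41.2 in High Control, and 35.0, 33.0, 37.4 and 52.7 in High Run mice. The 4 Low Run mice lay within a narrow range below every Low Control mouse, and 3 of the 4 High Run mice lay below every High Control mouse, with D62 as the exception. The log2 difference was -0.72 (SE 0.24) in the Low groups and -0.53 without D9. It was -0.26 (SE 0.22) in the High groups, -0.41 without D62 and -0.10 without D25.

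Scd1 (chromosome 19, 44394455 to 44407879, minus strand), which makes monounsaturated fatty acids, was at 172, 117, 487 and 94.1 CPM in Low Control, 47.3, 326, 141 and 44.3 in Low Run, 85.6, 321 and 177 in High Control, and 158, 121, 69.0 and 38.5 in High Run mice. The groups overlapped. None of the 5 highest mice was from High Run, but D49 of that group came next, at 158 CPM. The log2 difference of -0.81 in the Low groups had an SE of 0.87, and the fold of 0.499 in the High groups had an SE of 0.71 on the log2 scale. The log2 difference of the High groups was -0.62 without D62 and -0.54 without D25, and in the Low groups the fold was 0.570 with all mice and 0.499 without D9.

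**Figure D2:**
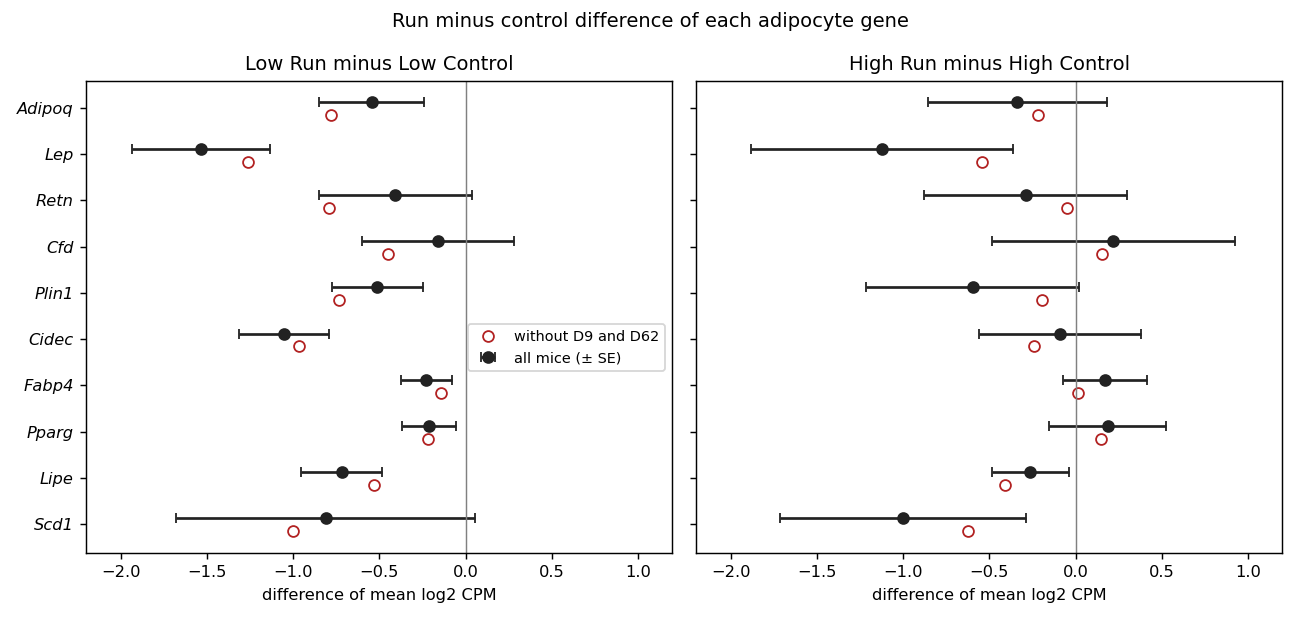
Difference of mean log2 CPM between Run and Control mice (horizontal axis) for each gene, with all mice (filled, ± SE) and without D9 and D62 (open). All 10 values are below 0 in the Low groups, from -1.53 for Lep to -0.16 for Cfd, and in the High groups Cfd, Fabp4 and Pparg are above 0.

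Between the Low groups, Run against Control, the quasi-likelihood test of edgeR across all genes called 0 of 16920 genes at an FDR of 0.1 (0%), with 2274 genes at an unadjusted p under 0.05, and DESeq2's Wald test called 10. None of the adipocyte genes was called by either tool. All 10 had a lower fitted level in Low Run mice, with a median log2 difference of -0.56, while the median of all genes tested was 0.02 and 8145 of the 16920 were lower. At an unadjusted p under 0.05, 3 of the 10 were lower (Lep, Cidec and Lipe) against 7.52% of all genes, and the same 3 did not overlap between the groups against 3.59% of all genes. These members were chosen with this comparison known, so nothing is read from these counts or from those given below. Without D9 and D62, 6 of the 10 did not overlap (Adipoq, Lep, Retn, Plin1, Cidec and Lipe) against 4.68% of all genes, and the same 6 were lower at an unadjusted p under 0.05 against 3.65%. The median of the 10 was then -0.76. A score per mouse, the mean over the 10 genes of log2 CPM centered on each gene, was 0.33 ± 0.19 (SD, n = 4) in Low Control and -0.28 ± 0.13 (SD, n = 4) in Low Run mice, and the lowest Low Control mouse (D9, 0.12) lay above the highest Low Run mouse (D57, -0.12). A score of Adipoq, Retn, Cfd and Plin1 alone overlapped between these groups, with D9 the lowest of all mice at -0.69.

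Between the High groups, Run against Control, edgeR also called 0 genes (0%), with 877 at an unadjusted p under 0.05, and DESeq2 called 15, none of them among the 10 adipocyte genes. The fitted level was lower for 8 and higher for 2 of the 10 (median -0.33, with 0.05 for all genes). Cfd was among the lower ones by this fit, although its difference of mean log2 CPM was 0.22. None of the 10 reached an unadjusted p under 0.05, against 3.28% of all genes higher and 1.90% lower, and none was without overlap, against 3.47% of all genes higher and 3.60% lower. Without D9 and D62, Lipe alone was lower without overlap (6.34% of all genes) and at an unadjusted p under 0.05 (2.64%). The score was 0.15 ± 0.68 (SD, n = 3) in High Control and -0.16 ± 0.29 (SD, n = 4) in High Run mice. The large spread in High Control mice came from D25, whose score of 0.94 was the highest of all mice, while D23 and D67 lay at -0.24 and -0.25, among the Run mice. Without D25 the difference of the scores changed from -0.31 to 0.08. Then 7 of the 10 genes had a higher fitted level in High Run mice (median 0.24), against 10110 of the 17328 genes tested (median 0.06). Cfd reached an unadjusted p under 0.05 by edgeR, as did 693 of all genes. Without D67 or without D49, Lep alone passed that level, beside 586 and 1124 of all genes. Without D62 the difference of the scores was -0.20.

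The difference between the running responses of the Low and High groups, the Frailty × Run interaction, was 0.31 (SE 0.43) for the score. EdgeR called 0 genes for it (0%), with 1342 at an unadjusted p under 0.05, and DESeq2 called 0. None of the 10 adipocyte genes reached that unadjusted p, against 5.24% of all genes higher and 2.69% lower. When 1 mouse was left out, 3 of the 10 reached it without D25 (Cfd, Cidec and Pparg), beside 922 of all 17328 genes tested by edgeR. Without D98, 2 did (Cidec and Lipe), beside 1929 of all genes. Cidec alone did without D49 (1246 of all genes) or without D57 (968 of all genes). Of the 10 adipocyte genes, Cidec had the largest value, 0.96 (SE 0.54), as its Low Run mice were below their controls and its High Run mice close to theirs. For Lep the value was 0.41 (SE 0.86), and Lep was lower after running in both frailty groups. The interaction for the score was 0.70 without D25 and 0.50 without D9 and D62. For Cidec it was 1.39 without D25 and 0.73 without D9 and D62, and for Lep 0.76 and 0.72.

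Between the frailty groups, sedentary mice differed by -0.18 (SE 0.40) in the score and Run mice by 0.12 (SE 0.16), High minus Low. EdgeR and DESeq2 called 0 genes in either comparison (0%), with 992 and 424 genes at an unadjusted p under 0.05 by edgeR, and 0 of the 10 genes passed that level in either. For all genes it was passed by 1.80% higher and 4.06% lower in sedentary mice, and by 1.52% higher and 0.987% lower in Run mice. Lep was the gene with the largest value in sedentary mice, with a log2 difference of -0.84 (SE 0.57) of High Control from Low Control mice. Cidec was the gene with the largest value after running, 0.51 (SE 0.29) higher in High Run mice. Without D9 and D62 the score differed by -0.26 in sedentary and 0.23 in Run mice, Lep by -0.57 in sedentary mice and Cidec by 0.36 in Run mice. Without D25 the score of sedentary mice differed by -0.58 and their Lep by -1.19. Cidec alone of the 10 genes then reached an unadjusted p under 0.05 by edgeR, beside 510 of all genes. Lipe alone did so in sedentary mice without D98 (1805 of all genes) and Cidec alone in Run mice without D57 (377 of all genes). All 5 comparisons draw on the same 4 groups, so they are not independent of each other.

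Across the mice, the genes did not move as 1 block. Of all pairs, Adipoq and Retn had the highest Pearson's r over 15 mice, 0.90, with a Spearman's rho of 0.83, and r = 0.83 and rho = 0.76 after the 2 mice farthest from the median of Adipoq (D25 and D53) were left out. Adipoq also went with Cfd (r = 0.79, rho = 0.69) and Plin1 (r = 0.75, rho = 0.76), and without the same 2 mice these fell to r = 0.60 and rho = 0.53 for Cfd and to r = 0.66 and rho = 0.69 for Plin1. Retn and Plin1 had a lower r but a higher rho (r = 0.84, rho = 0.90, and r = 0.71, rho = 0.84 without D25 and D11). A different pair was Cidec and Lipe (r = 0.84, rho = 0.81, and r = 0.80, rho = 0.73 without D66 and D25). Retn and Lipe had r = -0.0048 and rho = 0.13 over all mice, and r = -0.37 and rho = -0.15 without D25 and D11. In all, 45 pairs were computed. These values are across mice that share a group mean and 1 library each for both genes, and they are given as a description.

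**Figure D3:**
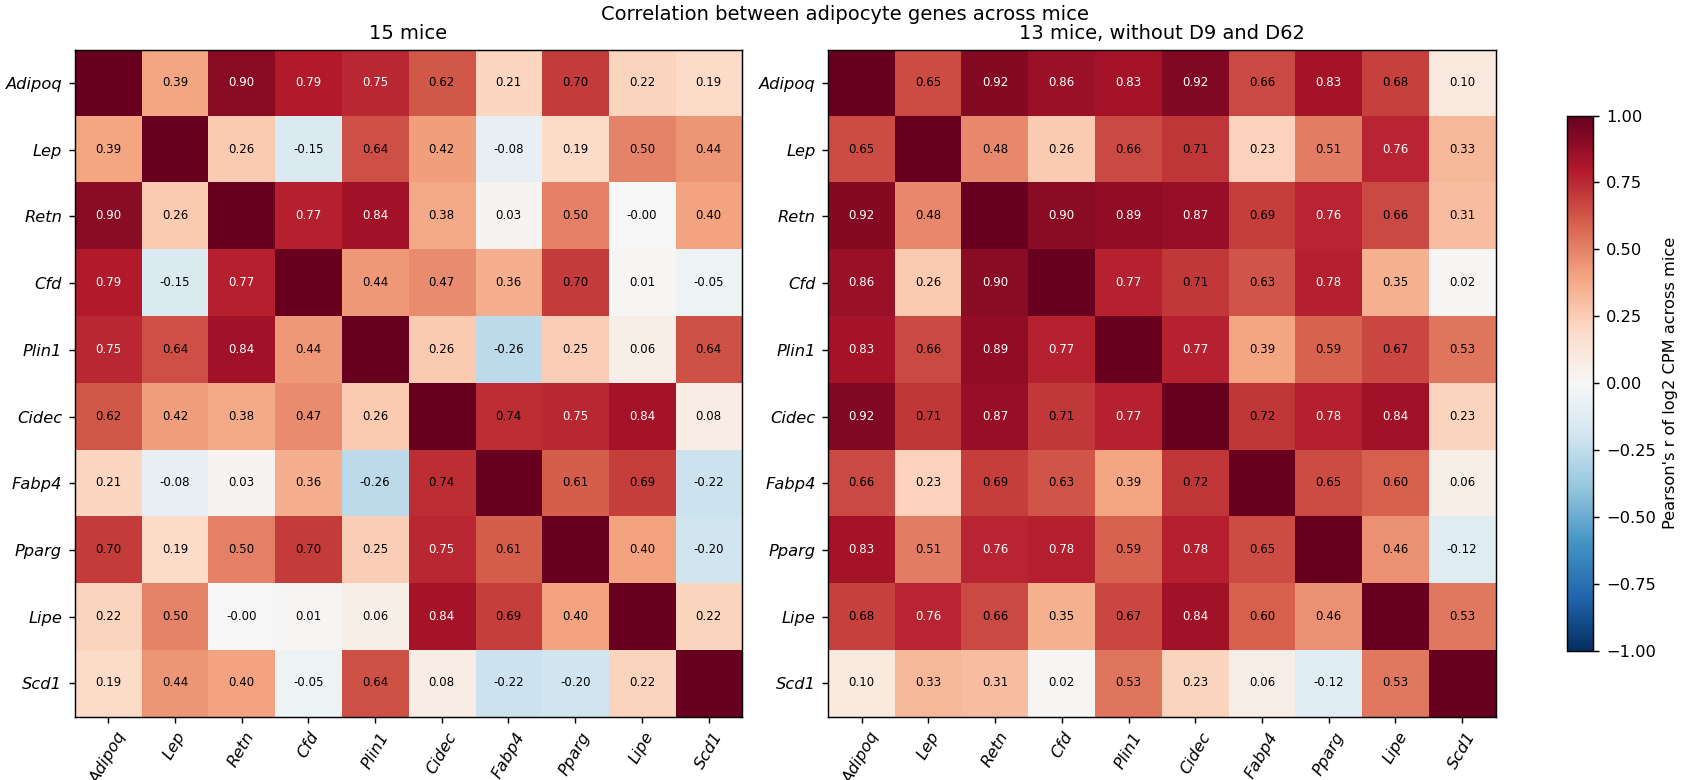
Pearson's r of log2 CPM between each pair of the 10 genes over 15 mice (left) and over 13 mice without D9 and D62 (right). Without these 2 mice the r of Adipoq with Cidec is 0.92 in place of 0.62, with Lipe 0.68 in place of 0.22, and with Scd1 it stays near 0.

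The division was smaller without D9 and D62. Over the other 13 mice, Adipoq went with Cidec at r = 0.92 and rho = 0.88, with Pparg at r = 0.83 and rho = 0.87, with Lipe at r = 0.68 and rho = 0.61 and with Fabp4 at r = 0.66 and rho = 0.63. Retn with Lipe was at r = 0.66 and rho = 0.55. Scd1 had an r of 0.10 and a rho of -0.06 with Adipoq. Lep with Adipoq was at r = 0.65 (rho = 0.73), compared to r = 0.39 (rho = 0.49) over all mice and r = 0.40 (rho = 0.52) without D25 and D53.

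The count of Lep for every 100 counts of Adipoq in the same library does not depend on depth. It was 51.0, 136, 30.0 and 24.1 in Low Control, 16.8, 22.0, 39.1 and 21.2 in Low Run, 35.9, 21.7 and 20.6 in High Control, and 32.1, 20.0, 12.5 and 5.10 in High Run mice. In 13 of the mice it lay between 12.5 and 51.0, with D9 above and D62 below this range, and over all mice the highest exceeded the lowest by 26.7-fold. The Low groups overlapped in this ratio, since D66 lay above D11 and D98. Retn for every 100 counts of Adipoq ranged from 28.3 to 58.3 (2.06-fold) over the 15 mice and Plin1 from 45.4 to 139 (3.06-fold). Over all 15 mice these ratios were more alike than that of Lep, whose extremes were D9 and D62. For the other genes the range was 2.53-fold (Pparg), 3.08-fold (Cfd), 3.22-fold (Cidec), 4.00-fold (Fabp4), 4.78-fold (Lipe) and 12.5-fold (Scd1).

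**Figure D4:**
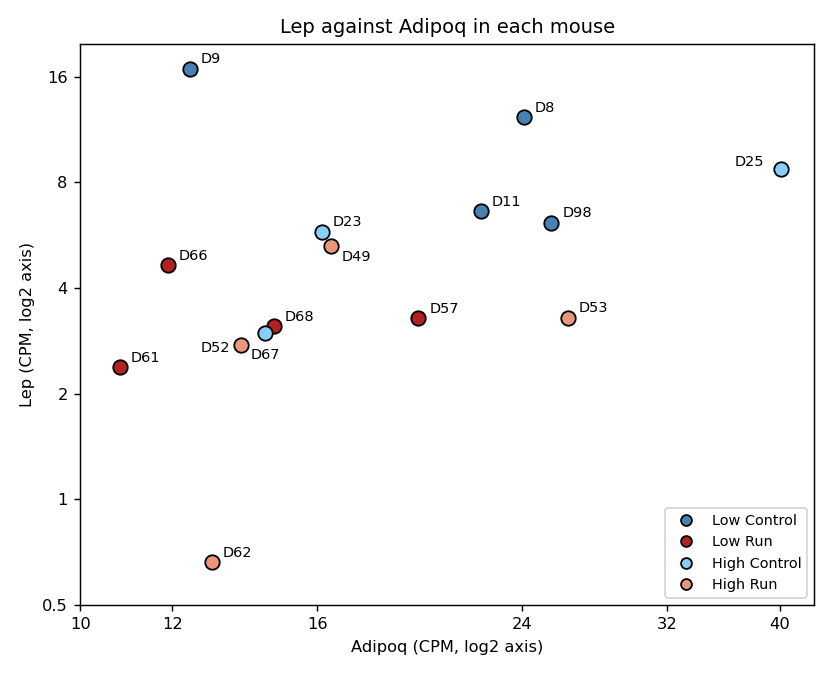
CPM of Lep (vertical, log2 axis) against CPM of Adipoq (horizontal, log2 axis), 1 point per mouse, colored by group. D9 at 16.9 and D62 at 0.661 CPM of Lep have nearly the same Adipoq, 12.4 and 13.0 CPM.

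High Control mouse D25 was the highest of the 15 mice for Adipoq, Retn, Cfd, Plin1, Cidec and Pparg. Its Adipoq, 40.1 CPM, compares with 16.1 and 14.4 in the other High Control mice. Its ratio of Lep to Adipoq (21.7) and of Plin1 to Adipoq (98.5) lay near the medians over all mice, 22.0 and 104. The ratio to Adipoq in D25 was also near the median for Retn (41.95, median 41.72), Cfd (449, median 432), Cidec (82.8, median 89.9) and Scd1 (800, also the median). For Fabp4 (633) and Pparg (19.7), however, the ratio in D25 was the lowest of all mice. For Lipe it was 146, below the median of 245. In D62 the levels themselves parted. Lep, Plin1 and Scd1 were at their lowest of all mice and Fabp4 at its highest. Of the High Run mice, D62 was also the lowest for Adipoq and Retn and the highest for Lipe. Its Cfd, Pparg and Cidec were above the group's mean. In D9, Lep and Lipe were at their highest while Retn and Cfd were at their lowest.

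Several genes of lipid use and of the response to fasting stood high in D9 and D62. Pdk4, the kinase that shuts off glucose oxidation in fasting, was at 6837 CPM in D9 and 4684 in D62, and at 130 to 2650 in the other mice. Cebpd, a C/EBP factor of early adipogenesis that glucocorticoids also switch on, was at 416 and 490 CPM in these 2 mice and at 18.4 to 177 in the others. Plin4, a droplet coat protein, was at 978 and 1074 CPM in them, and at 206 to 652 in the others. The r of Lipe with Pdk4 was 0.71 (rho = 0.61) over 15 mice, and 0.44 (rho = 0.41) without D9 and D8, the mice farthest from the median of Lipe. A list of 5 genes of the response to fasting and glucocorticoids, Pdk4 among them, summed to 575 to 8511 CPM in Low Control and 1114 to 1419 in Low Run mice, and all 5 had a lower fitted level in Low Run mice (median -1.75). In High Control mice it summed to 1603 to 2564 CPM and in High Run mice to 753 to 6115. Without D9 and D62, 4 of the 5 were lower in Low Run mice (median -0.91). In the High groups 3 of the 5 were higher after running (median 0.22), and without D9 and D62 all 5 were lower (median -0.65). The part that these genes' levels play in the adipocyte values was not tested, and the list and these 3 genes were chosen after their values had been seen.

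**Figure D5:**
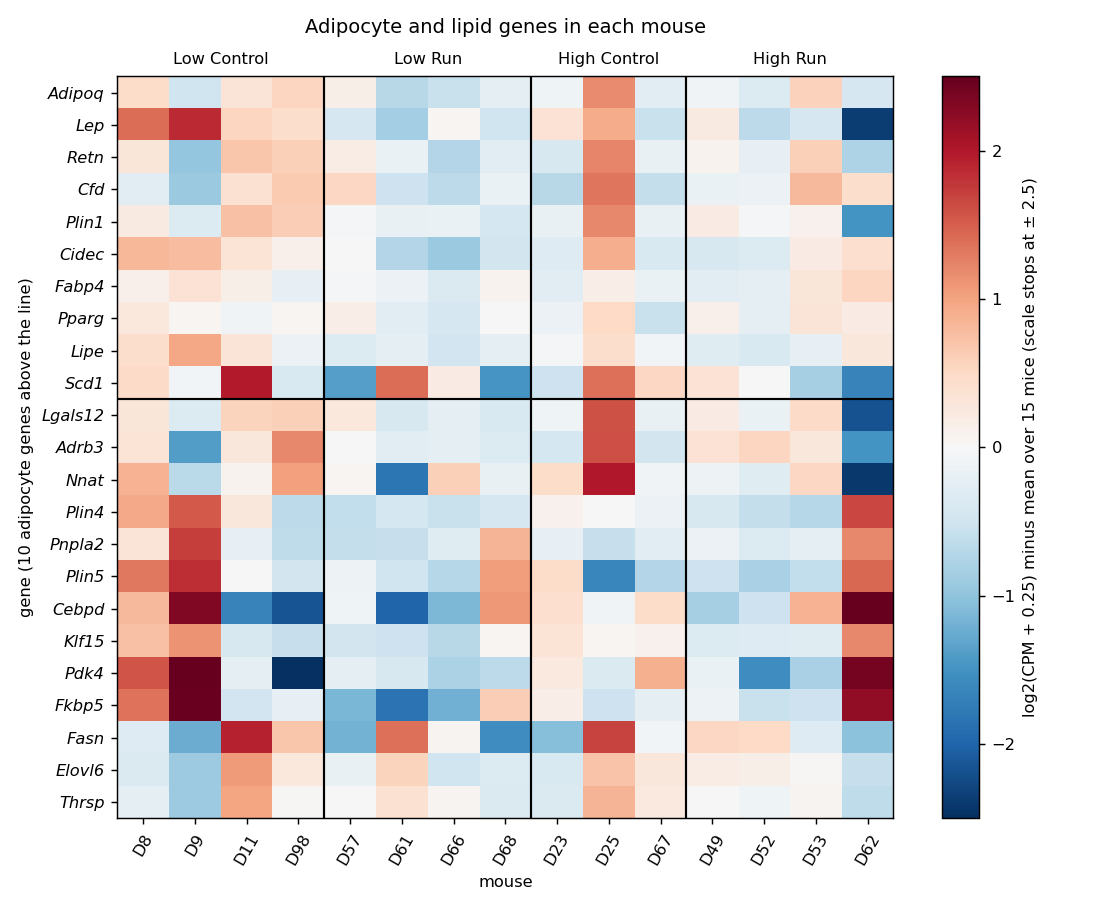
Log2(CPM + 0.25) of the 10 adipocyte genes (above the line) and of 13 further genes picked after their values were seen, as the difference from the gene's mean over 15 mice, with mice in columns. D25 is high for most adipocyte genes and for Lgals12, Adrb3 and Nnat, D9 and D62 are high for Plin4, Pnpla2, Plin5, Cebpd, Klf15, Pdk4 and Fkbp5, and the pattern of Scd1 resembles that of Fasn.

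Scd1 varied with 3 genes of fat synthesis, Fasn, Thrsp and Elovl6, that were picked after their values were seen. Its r was 0.85 (rho = 0.78) with Fasn, the fatty acid synthase, over 15 mice, and 0.80 (rho = 0.74) without D11 and D62, the mice farthest from the median of Scd1. With Thrsp, a lipogenic regulator, r was 0.73 (rho = 0.73, and r = 0.55, rho = 0.62 without D11 and D62). With Elovl6, which elongates fatty acids, it was 0.69 (rho = 0.67, and r = 0.52, rho = 0.52 without the same mice). With Srebf1, which encodes the lipogenic factor SREBP1, it was -0.02 (rho = -0.01, and r = 0.07, rho = 0.04). With Adipoq it was 0.19 (rho = 0.03, and r = 0.06, rho = -0.01 without D25 and D53). Fasn was highest in D11, D25 and D61 (140.3, 119.5 and 96.5 CPM), which were also the 3 mice highest for Scd1, 1 each from Low Control, High Control and Low Run.

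Of 16 other genes of white adipocytes, all of which passed the filter, 14 were lower and 2 higher in Low Run than in Low Control mice, with a median log2 difference of -0.40 (all genes 0.02). By edgeR 2 of them were lower at an unadjusted p under 0.05, beside 1272 of all 16920 genes. These were Plin4 (log2 difference -1.24) and Trarg1, which helps move glucose transporters in adipocytes (-0.80). At that level 1 was higher, Car3, carbonic anhydrase 3 (0.62), beside 1002 of all genes. The Benjamini-Hochberg adjusted p of each of the 3 was 0.358, so none was called. Car3 is also abundant in slow muscle fibers, and Aqp7, the glycerol channel (-0.03), and Rbp4, a retinol carrier (0.05), had the smallest differences. In the High groups 13 of the 16 were lower and 3 higher after running, with a median of -0.26 (all genes 0.05). None passed an unadjusted p under 0.05, beside 322 of all genes lower and 555 higher. Without D25, 12 of the 16 were higher there (median 0.18), and without D9 and D62, 14 were lower (median -0.23). Without the same pair of mice 15 of the 16 were lower in Low Run mice (median -0.59), with -0.85 for Plin4, -0.40 for Trarg1 and 0.42 for Car3. For Plin4 the Frailty × Run interaction was 1.63 (SE 0.72, unadjusted p = 0.038, adjusted p = 0.600), with D9 and D62 the highest mice, and 0.29 without them. For Car3 it was -0.79 (SE 0.34, unadjusted p = 0.035, adjusted p = 0.600), and -0.54 without them. In D25, Lgals12, a galectin of lipid droplets that was picked after its values were seen, was at 7.42 CPM, the highest of all mice, and in D62 at 0.315, the lowest. Its r with Plin1 was 0.96 (rho = 0.91), and 0.89 (rho = 0.87) without D62 and D25.

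Of 16 genes of fatty acid and triglyceride synthesis, 12 were lower and 4 higher in Low Run than in Low Control mice (median -0.16), and 13 lower and 3 higher in High Run than in High Control mice (median -0.31). Without D25 the High groups had 8 lower and 8 higher (median 0.08), and without D9 and D62 the Low groups had 15 lower and 1 higher (median -0.19). Pck1, which makes glycerol phosphate for triglycerides in fat, had a log2 difference of -0.999 (SE 0.41, unadjusted p = 0.028, adjusted p = 0.358 by edgeR) in the Low groups, which did not overlap. In the High groups Pck1 was at 9.54, 47.5 and 17.3 CPM in Control and 8.15, 7.93, 11.9 and 15.7 in Run mice, which overlapped, with D25 far above all others. Its log2 difference there was -1.18 (SE 0.43, unadjusted p = 0.015, adjusted p = 0.956 by edgeR) and -0.30 without D25. Acaca, the acetyl-CoA carboxylase, had a log2 difference of -0.58 in the Low groups (adjusted p = 0.358 by edgeR), and Mlxipl and Gpam had 0.02 and -0.01. The interaction for Acaca was 0.68 (SE 0.29, unadjusted p = 0.034, adjusted p = 0.600 by edgeR), and 0.64 without D9 and D62. Of the 8 lipolysis and droplet genes that passed the filter, out of 9, all 8 were lower in Low Run mice (median -0.32, from -0.87 for Plin5 to -0.08 for Abhd5) and 6 were higher in High Run mice (median 0.25). Without D9 and D62 the medians were -0.15, with 7 of 8 lower, and -0.0021, with 4 of 8 lower. With all mice none passed an unadjusted p under 0.05 in the Low groups. In the High groups 1 did, Abhd5, the co-activator of adipose triglyceride lipase, with -0.28 (adjusted p = 0.956 by edgeR), and -0.24 without D9 and D62. Of all 16920 genes, 322 were lower at that unadjusted level in the High groups. Among 6 receptors and partners of the adipokines and insulin, Insr, the insulin receptor, had a log2 difference of -0.80 in the Low groups (SE 0.25, unadjusted p = 0.0064, adjusted p = 0.358) and an interaction of 1.03 (unadjusted p = 0.014, adjusted p = 0.600). Insr was highest in D9 and D62, and without them these values were -0.42 and 0.48. The adiponectin receptor Adipor1 had a log2 difference of -0.04 in the Low groups.

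Among the regulators of adipogenesis, 9 of 12 were lower in Low Run mice (median -0.24, from -0.95 to 0.24). Rxra, the partner of PPARγ, had the lowest unadjusted p of the list and was picked after its values were seen. Its log2 difference was -0.46 (unadjusted p = 0.013, adjusted p = 0.358 by edgeR), and -0.31 without D9 and D62. All 5 genes of fatty acid uptake were lower (median -0.32), with -0.61 for Cd36, the fatty acid translocase (adjusted p = 0.377 by edgeR). Without D9 and D62 the regulators had 6 of 12 lower (median -0.05) and the uptake genes 5 of 5 (median -0.13), with -0.25 for Cd36. Gata2, which holds back adipogenesis, had an interaction of 0.73 (SE 0.31, unadjusted p = 0.034, adjusted p = 0.600 by edgeR), and of 0.36 without D9 and D62. Both lists are also expressed by muscle fibers and capillaries. No gene of these lists was called by edgeR in any of the 5 comparisons, with all mice, without D9 and D62 or without D25.

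Markers of other cells were summed per mouse beside these values. Lymph node and lymphocyte markers were at 21.3 CPM in Low Run mouse D61, the mouse with the lowest Adipoq, and at 4.43 in D66. D57 and D68, at 1.14 and 1.05 CPM, lay within the range of the mice outside Low Run, 0.332 to 2.89 CPM. Of these 6 markers, 4 passed the filter, while Ccl21a stayed under 10 counts in every mouse. All 4 were higher in Low Run than in Low Control mice at an unadjusted p under 0.05, beside 1002 of 16920 genes. The lowest adjusted p of the 4 was 0.358 by edgeR. Without D61, 2 of the 4 were higher at that unadjusted level, beside 2190 of all genes in either direction. Tendon markers ranged from 306 to 1153 CPM in Low Run and from 289 to 707 in Low Control mice, endothelial markers from 200 to 286 and from 281 to 310, and macrophage markers from 78.9 to 123 and from 55.4 to 114. All 6 Schwann cell markers were lower in Low Run mice (median -0.32), and all 6 were higher in High Run mice (median 0.45). These medians were -0.47, with 5 of 6 lower, and 0.09 without D9 and D62. All 5 erythroid markers were lower in Low Run mice (median -1.19) and higher in High Run mice (median 2.21). In the High groups each passed an unadjusted p under 0.05 (adjusted p at least 0.956 by edgeR), beside 555 of all 16920 genes higher. All 6 macrophage markers were higher after running in both the Low (median 0.29) and the High groups (median 0.83). In the Low groups 3 of the 6 were higher without D9 and D62 (median 0.14). Progenitor cells from which adipocytes of muscle arise are marked by 6 genes. In Low Run mice 5 were higher (median 0.40), none at an unadjusted p under 0.05. In High Run mice 5 were also higher (median 0.12), 1 of them at that level, beside 555 of all 16920 genes. Without D9 and D62 the medians were 0.25, with 5 of 6 higher, and 0.36, with 6 of 6 higher. At that level 2 of the 6 were then higher in High Run mice, beside 704 of 16724 genes. Whether the share of these cells in the portion taken bears on the adipocyte genes was not tested.

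Outside all lists, the genes whose log2 CPM ranked most like the score of the 10 genes over 15 mice were A530016L24Rik (rho = 0.89), Prkar2b (0.88), Ankef1 (0.86), Slc1a5 (0.85), Tmem45b (0.84), Cd1d1 (0.83), Slc6a13 (0.80), Arxes2 (0.78), Gm10566 (0.77) and Gnai1 (0.76). Prkar2b encodes the regulatory subunit of protein kinase A that is abundant in fat, and Slc1a5 a glutamine transporter. Their Pearson's r was 0.91 each, and without the 2 mice farthest from the median score (D25 and D11) it was 0.88 for Prkar2b and 0.79 for Slc1a5. The lowest values belonged to Igkv6-15 (rho = -0.87), an immunoglobulin light chain segment, Hoxb4 (-0.83), Mylk3 (-0.79), Gm42798 (-0.77) and Vps26c (-0.76). Of the first 10 genes, 5 were again among the first 10 without D25 and D11, and 1 when values were centered within each group.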

How the data were processed

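RNA sequencing counts of 15 gastrocnemius samples were used. Per the submitters' processing notes and the study's methods, the authors aligned reads to mm10 with STAR 2.7.9a and used featureCounts to count read pairs that aligned properly and to 1 place, strand-specifically, over Ensembl genes other than mitochondrial ones. The deposited counts are whole numbers without normalization. The authors' second table holds the variance-stabilizing transformation of these counts, a log2-like scale, and the deposited log2-like values were used for the principal components and 1 alternative. All 15 columns of both tables were matched to a mouse by name, and 0 were left out.

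Genes were filtered with filterByExpr, scaled by TMM and tested in edgeR 4.0.16 (R 4.3.3) by the quasi-likelihood F-test with 1 mean per group, with Benjamini-Hochberg adjustment and a call at an FDR of 0.1. Log2 CPM used a prior count of 2. Differences of members are differences of mean log2 CPM, with the SE from the spread within both groups, and counts over lists use the log2 differences fitted by edgeR. DESeq2 1.42.0 was an alternative. Each library is 1 mouse, so p-values measure the spread between mice. The script was checked on simulated counts. Symbols and coordinates came from Ensembl gene names and GENCODE M21 on GRCm38, and correlations were computed in Python 3.11.15 with SciPy 1.17.1. Exons of Pparg and Lipe overlap antisense genes, which same-strand counting keeps apart.

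The 10 genes and all lists were chosen with earlier results of these data known. The genes named were the 10 members, the 10 highest and 5 lowest by rho with the score, and genes of the lists. From several lists, but not from each, those with the largest or smallest difference in the Low groups were named. All other genes named were picked after their values were seen, among them Rxra, Fasn, Thrsp, Elovl6, Srebf1, Lgals12, Pdk4, Cebpd and those of the heatmap. So were the values of list genes in the High groups and for the interaction, and the choice of Car3, Abhd5 and Gata2 there. Leaving out D9 and D62 together, a score of Adipoq, Retn, Cfd and Plin1, lists without D9 and D62, D25 or D61, and a list of fasting and glucocorticoid genes were added after seeing the data.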

Additional observations from a re-analysis of the deposited data

Results flagged for a closer look

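In 36 groups of 4 values (10 genes, their score and the ratio of Lep to Adipoq, in Low Control, Low Run and High Run mice) the gap of the most extreme mouse to its neighbor was compared with the group's range. Plin1 in High Run mouse D62 stood out, with a gap of 0.852 of the range, above Dixon's limit for 4 values. Chance flags about 1 in 20 such groups.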

How the results depend on the processing

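The depth of 19395125 counts or more left at least 21 counts for each of the 10 genes in every mouse. No paired analysis was possible because the groups share no replicate numbers. In the count of genes called, which was 0 in all 5 comparisons, DESeq2 gave 10 in the Low and 15 in the High running comparison. Without a filter on low counts, only the 20031 of 55450 genes with 0 counts in every mouse were left out. The calls were then 86 (Lep and Cidec among them), 19, 4 for the interaction and 6 for High Run against Low Run. RLE and upper-quartile scaling, at least 10 counts in every mouse, only the groups compared, an FDR of 0.05, each mouse left out and D9 and D62 left out gave 0. The cause was not tested. Upper-quartile scaling moved the mean of all genes in a mouse by up to 0.18 on the log2 scale. The score of the 10 genes differed between Low Run and Low Control mice by -0.62, and by -0.70 to -0.56 when 1 mouse was left out, and for the other comparisons this range was -0.51 to 0.079 in the High groups, 0.10 to 0.70 for the interaction, -0.58 to 0.017 for High Control against Low Control and 0.018 to 0.23 for High Run against Low Run. High Control mouse D25 gave 0.079, 0.70 and -0.58 when left out. A score of Adipoq, Retn, Cfd and Plin1 alone differed by -0.41 (SE 0.34) in the Low groups, and by -0.69 without D9 and D62. The groups overlapped in it, with -0.69 to 0.61 in Low Control and -0.53 to 0.21 in Low Run mice. Over single genes, 119 of 120 alternative values in the Low groups, 101 of 110 in the High groups, 171 of 190 for the interaction, 90 of 110 for High Control against Low Control and 111 of 120 for High Run against Low Run kept their sign. Of the 10 genes most like the score, 1 was kept with values centered within groups and 5 without the 2 mice farthest from the median.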
